A study of Capra hircus with 20 samples.

Results

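The comparison described here is that of hypothalamus from Jining grey goats on day 60 after birth with hypothalamus from newborn goats on day 1. It takes 10 of the 20 small RNA libraries of the series, 5 from each age, and covers all 683 miRNA rows that were measured, 407 with a known miRNA name and 276 numbered predictions. The change of a miRNA is the difference between the ages in the mean of log2(RPM + 1), day 60 minus day 1, where RPM is its number of reads after scaling every library to 1000000 miRNA reads. The Jining grey goat is a Chinese breed that reaches sexual maturity early. The goats of an age were described as biological replicates. They were kept in the same breeding environment, with food and water freely available, and received no treatment named in the labels. The labels give neither their sex nor a dissection or sequencing batch. The remaining 10 libraries, from days 120 and 180, entered the same fit only to estimate the spread within an age, and their levels are given where a later value adds to the description.

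A miRNA is made from a hairpin precursor, whose arms give a 5p and a 3p strand. Usually 1 strand is kept by Argonaute and the other is degraded. Bases near the 5′ end of the kept strand, the seed, pair with target mRNAs and lower their output. In the hypothalamus, which controls growth, feeding, stress and reproduction, the let-7 family accumulates as cells leave the progenitor state, and several miRNAs act on the neurons that release gonadotropin-releasing hormone.

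The libraries held 4018002 to 8284461 miRNA reads on day 1 and 4353386 to 6426411 on day 60, so that 3 reads, taken as the floor of detection, stood for 0.362 to 0.747 RPM. Between 374 and 433 miRNAs reached 1 RPM in a day-1 library and between 366 and 404 in a day-60 library. Of the neural miRNAs, miR-9-5p and miR-128-3p were checked against the tissue label and were abundant in every one of the 10 libraries. Not all neuronal miRNAs were abundant. Means on days 1 and 60 were 968 and 706 RPM for miR-124a and 13.9 and 12.1 RPM for miR-153. miR-9-5p, made in neural cells, ran from 119879 to 318675 RPM on day 1 and 62610.3 to 230007 RPM on day 60. miR-128-3p, of neurons, ran from 4934 to 31208 RPM on day 1 and 8795 to 24378 RPM on day 60. Replicate 2 of day 1 stood apart. It had the fewest reads and the lowest median rank correlation with the other libraries, 0.891, where the rest of the 10 had 0.916 or more. Numbered predictions took 4.28% of its reads, against 0.302% to 0.817% in the other day-1 libraries and 0.501% to 0.846% on day 60, and it held the highest day-1 value of 200 of the 414 miRNAs tested (48.3%). The difference between the age means made up 19.5% of the variance of the tested miRNAs over these 10 libraries. Chance differences between 5 and 5 libraries enter this share. The axis of largest variance (first principal component, 36.9%) did not separate the ages. Positions on it ran from -8.10 to 26.9 on day 1 and from -16.2 to 3.25 on day 60. The spread was wider among newborns: the within-age SD on the log2 scale had a median of 0.94 on day 1 and 0.72 on day 60 and was larger on day 1 for 272 of 414 miRNAs.

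Of the 683 rows, 414 were tested because at least 5 of the 20 libraries held 1 RPM or more of them, 357 of them known miRNAs. In limma with Benjamini-Hochberg adjustment over these 414, 16 miRNAs (3.86%) passed an adjusted p of 0.05. Only 3 (0.725%) were higher on day 60, miR-122 and both arms of let-7c. The other 13 (3.14%) were lower, 10 known miRNAs and 3 numbered predictions. Lower on day 60 were miR-449a-5p, miR-363-3p, miR-493-3p, miR-99a-3p, miR-30a-5p, miR-1271-5p, miR-324-5p, miR-1388-3p, miR-874-5p and miR-542-5p. The changes over all tested miRNAs were nearly balanced, with 193 above 0, 221 below 0 and a median of -0.04. A change of at least 1 log2 unit upward was measured in 40 miRNAs and downward in 68, most of which did not pass. Before adjustment, 87 miRNAs (21%) had a p under 0.05, 31 of them higher on day 60 (7.49%). The ages did not overlap, every day-60 library lying beyond every day-1 library, in 13 miRNAs (3.14%), 3 higher (0.725%) and 10 lower (2.42%) on day 60, 9 of which also passed the test. In whole tissue such as this, fewer cells of a type and less RNA per cell cannot be told apart.

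The calls lay mainly at moderate levels. Between 10 and 100 RPM in the mean of the 10 libraries, 9 of 128 miRNAs were called, 8 of them lower on day 60. Among the 110 tested miRNAs below 10 RPM 2 were called, both lower, and among the 105 between 100 and 1000 RPM 3 were called, 1 of them higher. Among the 71 at 1000 RPM or more, let-7c-5p was called higher and miR-30a-5p lower. Of the 269 rows not tested, 50 were known miRNAs, and none of the 269 had a mean above 3.56 RPM at either age. No row had reads in all 5 libraries of 1 age and none in the other.

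**Figure D1:**
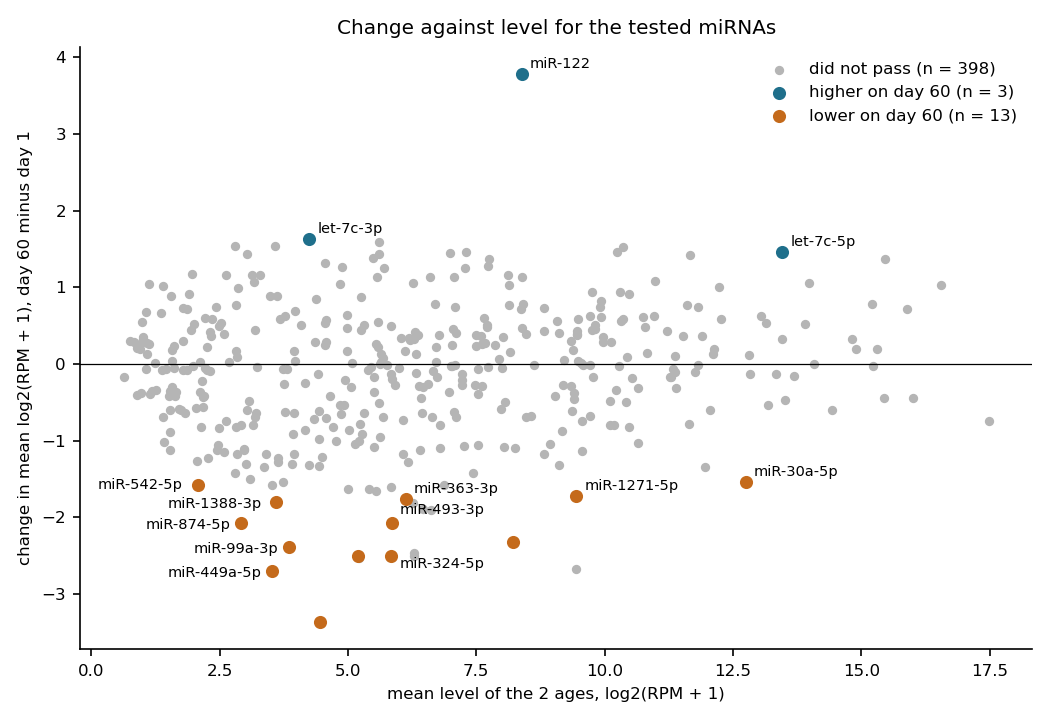
Change of each of the 414 tested miRNAs between day 1 and day 60 (vertical axis, log2 units, day 60 minus day 1) against its mean level over the 10 libraries (horizontal axis, RPM, log scale). Coloured points are the 16 that passed limma's adjusted p of 0.05, 3 above 0 and 13 below 0; the called known miRNAs are named, and the 3 called points without a name are numbered predictions.

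The largest change was the rise of miR-122, the dominant miRNA of hepatocytes, where it supports lipid metabolism. Taking replicates 1 to 5 of each age in order, here and throughout, it measured 91.6, 24.1, 17.5, 17.9 and 2.66 RPM on day 1 and 139, 138, 233, 2539.6 and 124 RPM on day 60. Every day-60 library lay above every day-1 library, and replicate 4 of day 60 lay more than 10 times above the other 4 (log2 change 3.78, SE 0.81, adjusted p = 0.011). miR-122 was not called once that library was left out (change 2.97, adjusted p = 0.0559). The other liver and gut miRNAs did not follow it as a group. miR-192-5p, of liver and intestine, ran from 438 to 1461 RPM on day 1 and 446 to 1257 RPM on day 60, and miR-194 from 47.8 to 230.4 RPM on day 1 and 50.1 to 187 RPM on day 60. miR-215-5p, of the same family as miR-192, ran from 0.975 to 7.85 RPM on day 1 and 3.11 to 40.2 RPM on day 60, its highest value falling in the same library as that of miR-122. The part of RNA from liver or gut in these values was not tested.

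let-7c was the let-7 hairpin with both arms called. Members of the let-7 family repress genes of growth and of the embryonic state. let-7c-3p measured 13.3, 5.97, 5.19, 9.63 and 7.605 RPM on day 1 and 20.3, 40.9, 31.9, 25.8 and 19.3 RPM on day 60, and all 5 day-60 libraries lay above the highest newborn (log2 change 1.63, SE 0.44, adjusted p = 0.0399). let-7c-5p measured 6131, 5622, 3406, 5920.3 and 5885 RPM on day 1 and 11035, 17868, 32947, 17426 and 5782 RPM on day 60. Here replicate 5 of day 60 lay within the newborn range and the other 4 above it (log2 change 1.46, SE 0.42, adjusted p = 0.0494). Each fit was also repeated 10 times, leaving out 1 day-1 or day-60 library at a time, and let-7c-3p passed in 5 and let-7c-5p in 3 of these. let-7c-3p lost its call without replicate 2 or 3 of day 1, or without replicate 2, 3 or 4 of day 60 (change 1.48 and adjusted p = 0.107 without replicate 2 of day 60, the highest p of these). The rise of let-7c-5p did not pass without replicate 1, 2 or 3 of day 1, or without replicate 1, 2, 3 or 4 of day 60 (change 1.31 and adjusted p = 0.132 without replicate 3 of day 1, the highest p of these).

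miR-449a-5p, which belongs with miR-34b and miR-34c to the group that drives the formation of motile cilia, measured 8.45, 3.48, 31.6, 44.5 and 9.54 RPM on day 1 and 1.72, 1.28, 1.38, 0.16 and 2.33 RPM on day 60. The 2 highest newborns, replicates 3 and 4, reached 31.6 and 44.5 RPM, while every day-60 library was below the lowest newborn (log2 change -2.70, SE 0.59, adjusted p = 0.0112). No call was made for miR-449a-5p without replicate 3 of day 1, or without replicate 4 of day 60 (change -2.41 and adjusted p = 0.065 without replicate 3 of day 1, the highest p of these). The other tested members of this group pointed the same way and did not pass. miR-34c-5p measured 292, 755, 1007, 4185 and 101 RPM on day 1 and 181, 42.99, 182, 107 and 56.3 RPM on day 60 (log2 change -2.67, adjusted p = 0.0831). Replicate 4 of day 1, with the highest miR-449a-5p, also held the highest miR-34c-5p, and the ages overlapped. miR-34c-3p had a log2 change of -2.53 (adjusted p = 0.0892) and miR-34b-3p one of -1.05 (adjusted p = 0.618).

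miR-363-3p comes from the X-linked paralog of the miR-17-92 cluster, whose products promote cell division. It measured 98.6, 139, 169, 45.7 and 85.1 RPM on day 1 and 36.6, 36.9, 22.1, 16.5 and 36.4 RPM on day 60. The day-60 libraries lay close together and all below the lowest newborn, replicate 4 (log2 change -1.76, SE 0.42, adjusted p = 0.0188). The call of miR-363-3p was lost without replicate 3 of day 1, or without replicate 4 of day 60 (change -1.57 and adjusted p = 0.0751 without replicate 4 of day 60, the highest p of these). Its neighbours in the same cluster, miR-20b with a log2 change of -1.21 (adjusted p = 0.204) and miR-106a-5p with -0.64 (adjusted p = 0.557), did not pass.

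miR-493-3p is a product of the imprinted DLK1-DIO3 region, a long run of miRNA genes expressed from the maternal chromosome and active in neurons. It measured 56.1, 185, 114, 75.5 and 39.8 RPM on day 1 and 13.4, 21.6, 19.8, 14.9 and 26.1 RPM on day 60. Newborn replicates 2 and 3 were the highest, and the ages did not overlap (log2 change -2.07, SE 0.52, adjusted p = 0.0249). miR-493-3p lost its call without replicate 2 or 3 of day 1, or without replicate 1, 2 or 4 of day 60 (change -1.99 and adjusted p = 0.0751 without replicate 4 of day 60, the highest p of these). Its 5p arm, which did not pass, measured 124 ± 92.4 and 146 ± 59.98 RPM (SD, n = 5; log2 change 0.75, adjusted p = 0.573). It was the only called member among 59 tested products of this region, of which 31 lay above and 28 below 0.

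miR-30a-5p, of a family known to target SNAI1 and the autophagy gene BECN1, was the most abundant of the miRNAs called lower. It measured 6927, 7283, 18282, 6236 and 12495 RPM on day 1 and 3628, 3367, 3517, 1417 and 5596 RPM on day 60. The newborns ranged widely, with replicate 3 highest, yet all 5 lay above the highest day-60 library (log2 change -1.54, SE 0.39, adjusted p = 0.0249). The fall of miR-30a-5p did not pass without replicate 3 of day 1, or without replicate 2 or 4 of day 60 (change -1.25 and adjusted p = 0.0864 without replicate 4 of day 60, the highest p of these). Of the other 10 tested products of the miR-30 family 7 lay above 0, among them miR-30c-5p at 2717 ± 787 and 4535 ± 1162 RPM (SD, n = 5; log2 change 0.75, adjusted p = 0.258). The 3p arm of miR-30a itself, miR-30a-3p, measured 604 ± 236 and 803 ± 362 RPM (log2 change 0.37, adjusted p = 0.671).

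miR-1271-5p shares its seed with miR-96 of the sensory miR-183 cluster. It measured 1046, 1049, 1641, 642 and 834 RPM on day 1 and 366, 207, 235, 190.0 and 716 RPM on day 60. Replicate 5 of day 60 lay within the newborn range and the other 4 below it (log2 change -1.72, SE 0.44, adjusted p = 0.0264). No call was made for miR-1271-5p without replicate 2 or 3 of day 1, or without replicate 2, 3 or 4 of day 60 (change -1.59 and adjusted p = 0.0948 without replicate 2 of day 60, the highest p of these). The miR-183 cluster itself showed no called member: miR-182 measured 137 ± 143 and 126 ± 74.9 RPM and miR-183 measured 201 ± 252 and 94.4 ± 60.9 RPM (SD, n = 5 each). miR-96 was far less abundant than miR-1271-5p, at 2.64 ± 3.27 and 1.31 ± 0.747 RPM (log2 change -0.30, adjusted p = 0.764).

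miR-99a-3p is the minor strand of the hairpin that lies beside let-7c in the genome. It measured 14.8, 53.3, 25.1, 9.38 and 12.1 RPM on day 1 and 7.02, 3.04, 1.15, 0.16 and 8.71 RPM on day 60, with all day-60 libraries below all newborns (log2 change -2.38, SE 0.56, adjusted p = 0.0188). The call of miR-99a-3p was lost without replicate 2 or 3 of day 1, or without replicate 4 of day 60 (change -1.96 and adjusted p = 0.0751 without replicate 4 of day 60, the highest p of these). Its major strand, miR-99a-5p, a repressor of MTOR signalling, measured 26227 ± 11309 and 17920.3 ± 8847 RPM (SD, n = 5) and did not pass (log2 change -0.60, adjusted p = 0.383). So the called fall at this hairpin was in the minor strand, while both strands of the neighbouring let-7c rose.

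The other 4 called known miRNAs had overlapping ages. miR-324-5p, which targets GLI1 and SMO of Hedgehog signalling, measured 24.5, 333, 126, 13.04 and 18.3 RPM on day 1 and 15.3, 6.23, 3.45, 3.36 and 21.2 RPM on day 60 (log2 change -2.50, SE 0.71, adjusted p = 0.0494). Replicates 2 and 3 of day 1 were far above the rest. The other 3 newborns spanned 13.0 to 24.5 RPM, and replicates 1 and 5 of day 60 lay among them. Its other arm, miR-324-3p, measured 12.8 ± 18.9 and 2.097 ± 1.69 RPM (SD, n = 5; log2 change -1.51, adjusted p = 0.0904). miR-324-5p lost its call without replicate 2 or 3 of day 1, or without replicate 2, 3 or 4 of day 60 (change -2.16 and adjusted p = 0.138 without replicate 3 of day 1, the highest p of these). miR-1388-3p measured 20.7, 23.6, 26.2, 7.19 and 9.78 RPM on day 1 and 6.86, 4.16, 1.15, 1.92 and 8.87 RPM on day 60 (log2 change -1.80, SE 0.52, adjusted p = 0.0494), with only replicate 5 of day 60 above the lowest newborn. The fall of miR-1388-3p did not pass without replicate 1, 2 or 3 of day 1, or without replicate 2, 3 or 4 of day 60 (change -1.62 and adjusted p = 0.132 without replicate 3 of day 1, the highest p of these). miR-1388-5p measured 48.2 ± 15.3 and 24.4 ± 12.1 RPM (log2 change -1.01, adjusted p = 0.237).

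miR-874-5p and miR-542-5p were near the floor on day 60. miR-874-5p measured 5.94, 33.8, 12.6, 3.41 and 2.66 RPM on day 1 and 3.27, 0.799, 0, 0.3199 and 2.96 RPM on day 60, where the 0 allows up to 0.689 RPM (log2 change -2.07, SE 0.52, adjusted p = 0.0249). miR-542-5p measured 2.11, 8.71, 12.8, 1.34 and 2.78 RPM on day 1 and 0.7796, 1.28, 0, 0.16 and 2.33 RPM on day 60, with the same limit for its 0 (log2 change -1.57, SE 0.45, adjusted p = 0.0494). In both, replicates 2 and 3 of day 1 were the highest newborns. The ages overlapped through replicates 1 and 5 of day 60 for miR-874-5p and through replicate 5 for miR-542-5p. No call was made for miR-874-5p without replicate 2 or 3 of day 1, or without replicate 2, 3 or 4 of day 60 (change -1.91 and adjusted p = 0.0864 without replicate 4 of day 60, the highest p of these). The call of miR-542-5p was lost without replicate 2 or 3 of day 1, or without replicate 1, 2, 3 or 4 of day 60 (change -1.22 and adjusted p = 0.138 without replicate 3 of day 1, the highest p of these). The more abundant arms of these hairpins were not called: miR-874-3p measured 224 ± 221 and 80.4 ± 27.9 RPM (log2 change -1.07, adjusted p = 0.265) and miR-542-3p 252 ± 241 and 255 ± 244 RPM (log2 change -0.05, adjusted p = 0.99; SD, n = 5).

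The 2 smallest p-values belonged to numbered predictions, whose hairpins have no known name. novel_125 measured 48.4, 63.96, 43.1, 20.7 and 17.02 RPM on day 1 and 4.52, 5.91, 0, 1.76 and 3.58 RPM on day 60 (log2 change -3.36, SE 0.54, adjusted p = 0.00067), and novel_1425 measured 113, 65.2, 25.1, 71.2 and 38.9 RPM on day 1 and 11.5, 8.31, 9.42, 6.88 and 8.87 RPM on day 60 (log2 change -2.51, SE 0.47, adjusted p = 0.00269). In both, every newborn lay above every day-60 library. These were the only 2 of the 16 called miRNAs that passed in all 10 fits leaving out a day-1 or day-60 library.

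**Figure D2:**
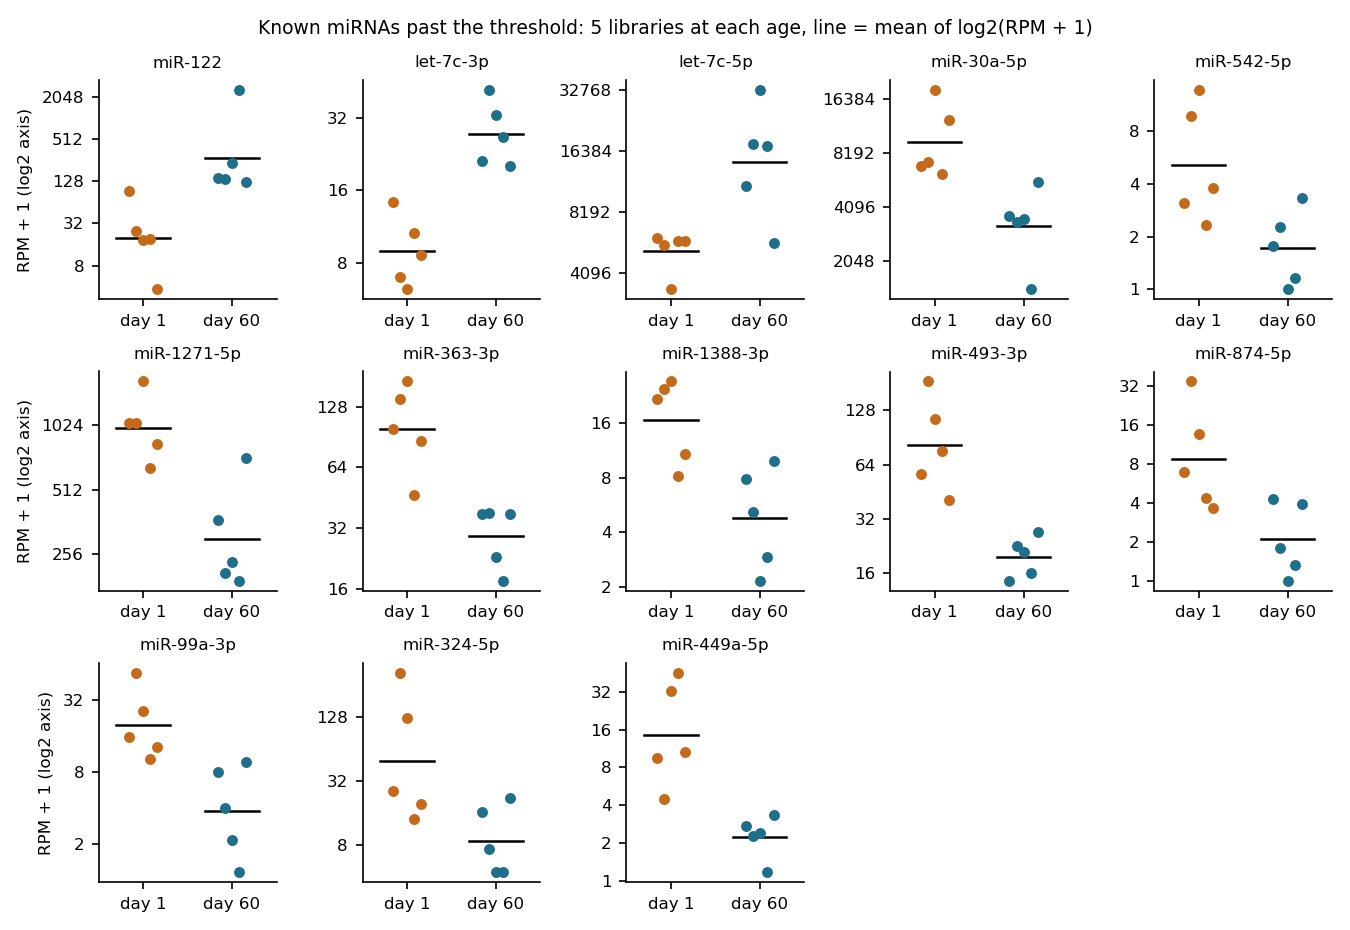
Level of the 13 called known miRNAs in each of the 10 libraries (RPM + 1, log2 axis), with day 1 and day 60 side by side, 1 point per library and the mean of log2(RPM + 1) as a line. The widest gap upward is that of miR-122, where replicate 4 of day 60 lies apart at 2539.6 RPM, and the ages overlap for let-7c-5p, miR-874-5p, miR-1271-5p, miR-324-5p, miR-1388-3p and miR-542-5p.

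Certain libraries held most of the extreme values of the falls. Of the 13 miRNAs called lower, the highest newborn was replicate 3 in 6, replicate 2 in 5 and replicate 1 or 4 in 1 each, and the lowest day-60 library was replicate 4 in 7 and replicate 3 in 5. The same libraries were often extreme over all 414 tested miRNAs. There newborn replicate 2 was the highest in 200 (48.3%) and newborn replicate 3 in 97 (23.4%). Day-60 replicate 3 was the lowest in 145 of the 414 and day-60 replicate 4 in 125. Fewer miRNAs were called when 1 of these 4 was left out: 6 without newborn replicate 2, 3 without newborn replicate 3, and 9 or 2 when the library omitted was day-60 replicate 3 or 4. Omitting day-60 replicate 2, the lowest library in 0 of the 13, also left 6. More were called, 43 or 31, when newborn replicate 4 or 5 was omitted, and 25 when day-60 replicate 5 was. Replicate 2 of day 1 and replicate 3 of day 60 also had the fewest reads of their ages, and the part of depth in the calls was not tested.

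The count tests and the other scalings placed more miRNAs past the threshold, with a larger share of rises. limma after median-of-ratios scaling called 40 of the 414 miRNAs (9.66%), 12 of them higher on day 60 (2.9%). After quantile scaling it called 34 (8.21%), again 12 higher (2.9%). edgeR with TMM factors called 57 (13.8%), 20 higher (4.83%), and DESeq2 called 86 (20.8%), 33 higher (7.97%). Each of these 4 lists of calls contained the 16 miRNAs above. Another 14 miRNAs were called by all 4 and not by the main test, 11 of them known: 4 higher and 7 lower on day 60.

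The 4 higher ones were let-7d-5p, let-7f-3p, miR-98-3p of the let-7 family and miR-3955-3p. let-7d-5p measured 933, 609.8, 347, 675 and 654 RPM on day 1 and 1839.7, 1973, 2211, 1863 and 939 RPM on day 60 (log2 change 1.47, adjusted p = 0.07), and the ages did not overlap, although replicate 5 of day 60 lay just above the highest newborn. miR-3955-3p measured 5.94, 1.74, 5.05, 5.97 and 4.71 RPM on day 1 and 22.9, 15.02, 5.74, 9.92 and 32.1 RPM on day 60 (log2 change 1.53, adjusted p = 0.067), with replicate 3 of day 60 among the newborns. let-7f-3p and miR-98-3p were near the floor on day 1, at 1.502 ± 1.17 and 0.349 ± 0.332 RPM, and measured 4.28 ± 0.964 and 2.03 ± 1.67 RPM on day 60 (SD, n = 5).

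Among the 7 lower ones, miR-140-3p, of a hairpin inside WWP2 best known from cartilage, was the most abundant. It measured 3094, 12373, 6378, 2283 and 5410.0 RPM on day 1 and 2262, 1848, 1503, 1446 and 3183 RPM on day 60 (log2 change -1.34, adjusted p = 0.0712). Replicate 2 of day 1 was far above the rest, and of the day-60 libraries replicate 5 lay among the newborns and the other 4 below them. miR-877-5p, cut from an intron by splicing rather than by Drosha, measured 47.8, 468, 60.4, 58.4 and 22.5 RPM on day 1 and 16.4, 27.3, 10.8, 31.99 and 18.4 RPM on day 60 (log2 change -1.81, adjusted p = 0.07). miR-331-3p measured 63.9, 474, 107, 48.9 and 32.1 RPM on day 1 and 40.1, 30.4, 9.42, 8.96 and 56.8 RPM on day 60 (log2 change -1.90, adjusted p = 0.0766). In these and in miR-425-3p, miR-130b-3p and miR-193a the highest newborn was again replicate 2. miR-193a measured 15.04, 559.7, 137, 14.01 and 8.21 RPM on day 1 and 12.3, 10.2, 4.82, 2.56 and 8.25 RPM on day 60 (log2 change -2.51, adjusted p = 0.0712). miR-193b-3p differed from it by at most 4 reads in any library, so the table does not separate them and they stand for 1 measurement.

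Other miRNAs near the threshold included known regulators. miR-101-3p, which silences EZH2 of the Polycomb complex, measured 1065, 1029, 3198, 2178 and 1117 RPM on day 1 and 5832, 3399.7, 2132, 2991 and 9247 RPM on day 60 (log2 change 1.42, adjusted p = 0.0712), with replicates 3 and 4 of day 60 inside the newborn range. let-7a-5p measured 33553, 16925, 15154, 21000.3 and 31543 RPM on day 1 and 47036, 73848, 118344, 66964 and 23750.0 RPM on day 60 (log2 change 1.37, adjusted p = 0.082), with replicate 5 of day 60 inside that range. miR-10a-5p, which lies in a HOX cluster, measured 67.4 ± 10.5 and 245 ± 180.0 RPM (SD, n = 5; log2 change 1.46, adjusted p = 0.0877). miR-335-3p measured 766 ± 588 and 1869.7 ± 1095 RPM (log2 change 1.52, adjusted p = 0.0766) and miR-454-5p 5.25 ± 2.99 and 12.1 ± 4.39 RPM (log2 change 1.16, adjusted p = 0.0877).

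On the lower side, miR-502b-3p measured 14.1 ± 9.8 and 4.34 ± 1.196 RPM (SD, n = 5; log2 change -1.35, adjusted p = 0.0586) and miR-301a-5p 16.4 ± 6.35 and 6.5 ± 2.66 RPM (log2 change -1.22, adjusted p = 0.0756). Neither passed, and in neither did the ages overlap. miR-592, hosted by the gene of a glutamate receptor, measured 68.5 ± 29.4 and 22.3 ± 13.98 RPM (log2 change -1.66, adjusted p = 0.0712), miR-199a-5p, a miRNA of mesenchymal cells, 179 ± 128 and 53.97 ± 40.7 RPM (log2 change -1.58, adjusted p = 0.0877), miR-1307-5p 18.3 ± 24.8 and 2.58 ± 1.11 RPM (log2 change -1.58, adjusted p = 0.0877) and miR-29c-5p 103 ± 52.6 and 39.02 ± 15.5 RPM (log2 change -1.27, adjusted p = 0.0877).

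The use of the 2 arms was compared next. For the 120 hairpins with both arms tested, of 151 with both arms in the table, the balance of arms was taken in each library as log2(5p + 1) minus log2(3p + 1), in which the library total largely cancels. In limma with Benjamini-Hochberg adjustment over the 120, 29 hairpins (24.2%) had a changed balance, 14 (11.7%) toward 5p and 15 (12.5%) toward 3p, and 38 had an unadjusted p under 0.05. The median change over the 120 was -0.00. In 24 of the 29, neither arm was called on its own level. The changes of the 2 arms lay on opposite sides of 0 in 23 of the 29 (79.3%) and in 51 of all 120 (42.5%); both figures come from the contrast that made the calls. The balance moved toward the strand that was more abundant on day 1 in 13 and toward the other strand in 16. The ages did not overlap in 6 of the 120 (5%), all of them called.

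miR-877 showed the smallest p. Its balance was 4.17, 4.49, 5.17, 3.83 and 3.98 on day 1 and 2.19, 2.37, 0.67, 2.43 and 2.29 on day 60. The 5p strand thus remained the major one in every library, by less on day 60, where every library lay below every newborn (change -2.34, SE 0.39, adjusted p = 0.000329). The 5p strand measured 131 ± 189 and 20.97 ± 8.56 RPM and the 3p strand 5.196 ± 8.29 and 4.36 ± 1.52 RPM (SD, n = 5), the latter between 0.483 and 3.17 RPM in the 4 newborns other than replicate 2. The call passed in all 10 fits leaving out a day-1 or day-60 library and under every other setting tried, with adjusted p-values up to 0.0146. Mean balances at the later ages were 2.66 on day 120 and 2.95 on day 180.

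Calls that also passed in all 10 of those fits were those of 2 further hairpins. miR-363, whose 3p strand fell, had a balance of -5.80, -5.68, -6.77, -4.86 and -5.29 on day 1 and -3.56, -4.06, -3.02, -3.28 and -5.02 on day 60 (change 1.89, SE 0.44, adjusted p = 0.0128). Its 5p strand stayed near the floor, at 0.982 ± 0.495 and 1.25 ± 0.809 RPM, so that the balance followed the 3p level. miR-301a, of the growth-linked miR-130 family, moved toward 3p (change -1.51, SE 0.40, adjusted p = 0.0233), again with 1 strand near the floor: miR-301a-3p did not exceed 2.96 RPM in any of the 10 libraries.

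In 4 of the 29, the strand with the higher mean was a different one at the 2 ages, against 7 of all 120. miR-2483 had a balance of 0.52, 4.18, 2.53, 1.51 and 0.78 on day 1 and -0.36, -0.06, 0.40, 0.09 and 0.02 on day 60, above 0 in every newborn and within 0.40 of 0 on day 60 (change -1.89, SE 0.50, adjusted p = 0.0233). It passed in all but the fit without replicate 2 of day 60. The others were miR-423 (change 1.47, SE 0.45, adjusted p = 0.0317), miR-331 (change 1.81, SE 0.53, adjusted p = 0.0264) and miR-1185 (change 1.59, SE 0.49, adjusted p = 0.0317). Of the 10 fits leaving out a day-1 or day-60 library, miR-423 and miR-331 each passed in 5 and miR-1185 in 6. All 3 calls were lost without newborn replicate 2 or 3. Both strands of miR-1185 were low, with day-1 and day-60 means of 0.593 and 2.65 RPM for 5p and 5.03 and 2.02 RPM for 3p. miR-423-5p measured 1409, 5049, 804, 1352 and 1505 RPM on day 1 and 1184, 3177, 4023, 4312 and 810.1 RPM on day 60, and miR-423-3p measured 1180.0, 9806, 576, 755 and 682 RPM on day 1 and 551, 821, 637, 597 and 551 RPM on day 60. The newborn mean of the 3p strand was set by replicate 2, since in the other 4 newborns the 5p strand was the more abundant one.

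Several abundant hairpins were among the calls. miR-140, whose 3p strand dominates, moved toward 5p (change 1.59, SE 0.42, adjusted p = 0.0233), the 3p strand measuring 5908 ± 3979 and 2048 ± 713 RPM and the 5p strand 117 ± 76.2 and 143 ± 82.4 RPM (SD, n = 5). miR-30a moved toward 3p, with a balance of 3.44, 4.25, 5.51, 3.28 and 3.69 on day 1 and 3.07, 1.69, 1.45, 0.93 and 3.47 on day 60 (change -1.92, SE 0.53, adjusted p = 0.0255), and the ages overlapped. miR-493 had the largest change, with a balance of 1.78, -2.40, -2.98, 1.43 and 2.07 on day 1 and 3.14, 2.49, 3.49, 3.45 and 1.42 on day 60 (change 2.82, SE 0.79, adjusted p = 0.0255). The SD of this balance was 2.46 on day 1 and 0.87 on day 60, whereas the SE assumes the same spread at all ages. Newborn replicates 2 and 3 were the only libraries of the 10 with more 3p than 5p reads of miR-493. miR-128, a neuronal miRNA, moved further toward its major 3p strand (change -1.53, SE 0.44, adjusted p = 0.0255). miR-145, of smooth muscle and pericytes, moved toward 3p (change -1.77, SE 0.60, adjusted p = 0.0352). Its ages did not overlap, but only narrowly, with the lowest newborn at 2.39 and the highest day-60 library at 2.37. Newborn replicate 2 stood at 6.98. The calls also held miR-432 and miR-127 of the DLK1-DIO3 region, with changes of 1.72 and -1.75, and miR-30f, miR-3955, miR-2411, miR-3431 and miR-15b, with 1.43, -1.57, -1.27, -1.43 and -1.32. Of the 10 fits leaving out a day-1 or day-60 library, miR-140 passed in 9 and miR-30f and miR-3955 in 7. miR-30a, miR-128 and miR-2411 passed in 6 of these fits. miR-493, miR-145, miR-432, miR-127 and miR-15b passed in 5, and miR-3431 in 3.

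**Figure D3:**
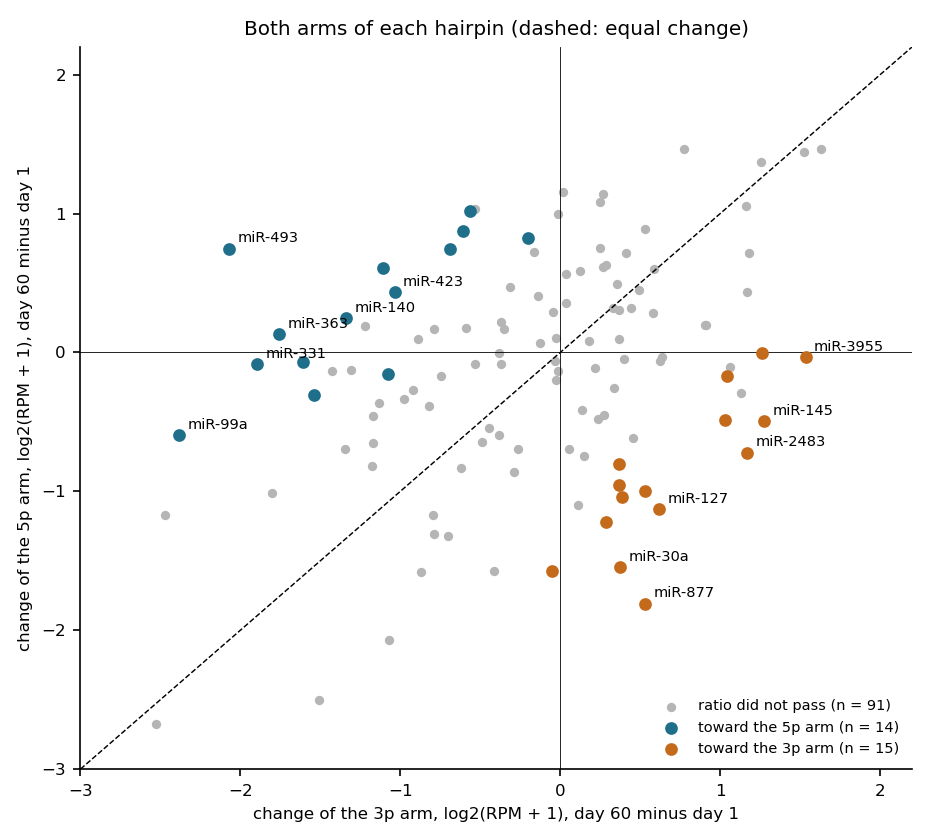
Change of the 5p arm (vertical axis) against that of the 3p arm (horizontal axis), both as the day 60 minus day 1 difference in mean log2(RPM + 1), 1 point for each of the 120 hairpins, with equal change as the dashed line. Coloured points are the 29 balances that passed, 14 toward 5p above the line and 15 toward 3p below it; miR-493 lies at -2.07 for 3p and 0.75 for 5p, and miR-877 at 0.53 for 3p and -1.81 for 5p.

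The number of changed balances depended on single libraries and on the pooled spread. It fell to 13 or 9 when newborn replicate 2 or 3 was omitted, and to 3, 6 or 11 when day-60 replicate 2, 3 or 4 was. With only the 10 libraries of these ages in the fit, 1 hairpin, miR-877, passed.

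Families and cell-type markers are described by counts and medians, beside the median of -0.04 over all 414. Of all 414, 193 lay above 0 and 221 below, and 3 (0.725%) were called higher and 13 (3.14%) lower. Paired levels are means ± SD on day 1 and day 60 (n = 5 each). The let-7 family with miR-98 had 15 of 17 tested products above 0 and a median change of 1.04, with the 2 products of let-7c called. The median was 1.02 and 0.90 under median-of-ratios and quantile scaling. Products of both arms were counted, and the median of 1.04 was the change of miR-98-3p, which was near the floor on day 1. Changes of the 5p products ran from -0.17 for miR-98-5p to 1.47 for let-7d-5p. The 2 most abundant members were let-7f-5p, at 50582 ± 27534 and 70357 ± 15180.0 RPM (SD, n = 5; log2 change 0.72, adjusted p = 0.289), and let-7a-5p, given above. The summed level of the family ran from 76360 to 210810 RPM on day 1 and from 182087 to 347891 RPM on day 60. The 2 products below 0 were let-7i-3p, at 6.39 ± 6.52 and 1.24 ± 0.287 RPM (log2 change -1.22, adjusted p = 0.195), the family's only product with an unadjusted p under 0.05 on the lower side, and miR-98-5p, at 2738 ± 1225 and 2257 ± 447 RPM (SD, n = 5; log2 change -0.17, adjusted p = 0.833). let-7i-5p measured 30256 ± 15885 and 30798 ± 7865 RPM (log2 change 0.19, adjusted p = 0.813), whereas let-7b-5p measured 9663 ± 2612 and 22488 ± 13237 RPM (log2 change 1.06, adjusted p = 0.189). The members differ by few bases, so the authors' counting may have split reads between them unevenly.

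Markers of multiciliated cells, the 4 tested products of miR-34b, miR-34c and miR-449a, were all below 0, with a median of -2.60 and 1 called. Their summed level ran from 145 to 5128 RPM among newborns and from 72.0 to 395 RPM on day 60, so that the newborns spanned a wide range that reached into the day-60 values. The choroid plexus list, whose tissue also carries motile cilia, had 3 products above and 3 below 0, a median of 0.01 and a summed level of 1808 to 8153 RPM on day 1 and 2611 to 11171 RPM on day 60. Its main miRNA, miR-204-5p, measured 3105 ± 2158 and 6429 ± 3784 RPM (log2 change 1.00, adjusted p = 0.237). The choroid plexus list shares miR-200a, miR-200b and miR-429 with the pituitary and epithelial list.

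For comparison with the next lists, 193 of all 414 tested miRNAs lay above 0 and 221 below, and 13 (3.14%) were called lower. The miR-17-92 cluster and its paralogs had 7 products above and 11 below 0, a median of -0.33 and 1 called lower, miR-363-3p. Its most abundant members were miR-92a-3p, at 4414 ± 3135 and 4483 ± 2152 RPM (log2 change 0.13, adjusted p = 0.941), and miR-25-3p, at 2593 ± 679 and 3316 ± 742 RPM (log2 change 0.37, adjusted p = 0.657). The broader list for neural stem and progenitor cells, which shares members with it, had 8 above and 12 below 0 (median -0.21, 1 called lower). The family of miR-130 and miR-301, also tied to growth, had 1 above and 5 below 0 with a median of -0.60, and the miR-15 and miR-16 family, which slows the cell cycle, 3 above and 5 below with a median of -0.45. Neither of these 2 had a called member. In the first, miR-130a-3p measured 34.3 ± 25.4 and 16.04 ± 6.999 RPM and miR-130b-5p 153 ± 86.3 and 142 ± 83.7 RPM, and in the second miR-16a-5p measured 2350.4 ± 950.5 and 3875 ± 1081 RPM and miR-16b-5p 609 ± 133 and 806 ± 224 RPM. The cluster of miR-424, miR-503, miR-542 and miR-450 had 2 above and 4 below 0 (median -0.38, 1 called lower, miR-542-5p), with miR-450-5p at 222 ± 113 and 296 ± 172 RPM. The miR-99, miR-100 and miR-125 list had 3 above and 7 below (median -0.27, 1 called lower, miR-99a-3p), with miR-100-5p at 50705 ± 12870.5 and 37715 ± 11658 RPM.

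Of the brain cell types, neurons had 9 products above and 13 below 0. Their median of -0.05 turned to 0.05 and 0.10 under the other 2 scalings, and 1 product, miR-874-5p, was called lower. Its 2 most abundant members lay on opposite sides of 0: miR-9-5p measured 224857 ± 78261 and 141362 ± 68036 RPM (log2 change -0.74, adjusted p = 0.25) and miR-7-5p 65193 ± 43396 and 125963 ± 85257 RPM (log2 change 1.03, adjusted p = 0.456). miR-124a, a neuronal miRNA, lay below 0 (968 ± 428 and 706 ± 566 RPM; log2 change -0.68, adjusted p = 0.552), while miR-128-3p lay above it (13816 ± 10737 and 16929 ± 6732 RPM; log2 change 0.53, adjusted p = 0.618). The oligodendrocyte list had 3 above and 1 below 0 (median 0.36, none called), and its members differed in direction. miR-219 and miR-338 promote myelination. miR-338-5p, the most abundant member of the list, measured 1362 ± 619.8 and 2676 ± 971 RPM (log2 change 1.08, adjusted p = 0.322), miR-338-3p 239.7 ± 259 and 227 ± 158 RPM (log2 change 0.25, adjusted p = 0.869), miR-219 58.7 ± 98.5 and 14.9 ± 9.19 RPM (log2 change -0.79, adjusted p = 0.623) and miR-23a 1516 ± 760.0 and 2008 ± 547 RPM (log2 change 0.48, adjusted p = 0.574). Astrocytes had 9 above and 5 below 0 (median 0.27, 1 called lower, miR-30a-5p), with miR-26a-5p at 36836 ± 6833 and 44526 ± 17451 RPM and miR-23b-3p at 7550.2 ± 3229 and 10452 ± 3519.6 RPM. Microglia and immune cells had 5 above and 7 below (median -0.02, of either sign by scaling, none called), with miR-21-5p at 15842 ± 21069 and 7668 ± 4081 RPM and miR-342-3p at 1254 ± 343 and 1217 ± 305 RPM. Vessels had 3 above and 8 below 0 (median -0.45, none called), and their summed level spanned 30529 to 221366 RPM among newborns. In it, miR-143-3p of smooth muscle measured 79640.0 ± 77768 and 51702 ± 44599 RPM and miR-126-3p of endothelium 7639 ± 2963 and 6945 ± 2278 RPM.

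The puberty and GnRH neuron list had 17 of 24 products above 0, a median of 0.36 and no called member. Higher on day 60 at an unadjusted p under 0.05 were 4 of its 24 products, beside 31 of all 414 (7.49%). These 4 were let-7a-5p, let-7a-3p, let-7b-5p and miR-145-3p, so 3 of them belong to the let-7 family described above. It includes miR-7-5p, a miRNA rich in hormone-secreting cells whose values are given with the neurons, and miR-200b, which acts on repressors of GnRH transcription, at 237 ± 311 and 178 ± 84.6 RPM (log2 change 0.49, adjusted p = 0.758). The values of both overlapped widely between the ages. The miR-29 family had 3 above and 2 below 0 (median 0.34), with miR-29a-3p at 876 ± 465 and 1125 ± 586 RPM. The miR-23/27/24 clusters had 5 above and 4 below (median 0.17). The DLK1-DIO3 region had a median of 0.18, with miR-127-3p at 6882 ± 3209 and 10070.2 ± 3863 RPM and miR-323a-3p at 4794 ± 3327 and 4202 ± 1026 RPM.

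Markers of other tissues were present at low to moderate levels. Erythroid miRNAs, 3 of 3 below 0 with none called (median -0.60), summed to between 90.5 and 1552 RPM on day 1 and between 149 and 289.6 RPM on day 60, a wider range among the newborns. miR-451-5p measured 505 ± 589 and 198 ± 51.5 RPM and miR-144-5p 8.96 ± 6.38 and 5.39 ± 3.52 RPM. Muscle markers lay evenly about 0 (3 above, 3 below). Their most abundant members measured 861 ± 917 and 928 ± 656 RPM for miR-1, of heart and skeletal muscle, and 98.1 ± 29.3 and 330.0 ± 316 RPM for miR-206. Of the posterior HOX markers, miR-10a-5p and miR-10b-5p were tested and both lay above 0 (median 1.13, none called), miR-10b-5p at 70.6 ± 25.9 and 135 ± 75.6 RPM. The 4 tested pituitary and epithelial markers, miR-200a, miR-200b, miR-200c and miR-429, had 2 on each side. They are the tested miR-200 family, and the list's miR-375, miR-203 and miR-205 had no measured row. In 1 newborn, replicate 2, miR-200c stood at 498 RPM, where the other 4 newborns held 3.53 to 11.6 RPM. The liver and gut list had 4 of 4 above 0 (median 0.55), with miR-122 the only called member. Of these 4, miR-192-5p and miR-194 lay barely above 0, with log2 changes of 0.01 and 0.02. The part of these other tissues in the calls was not tested.

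**Figure D4:**
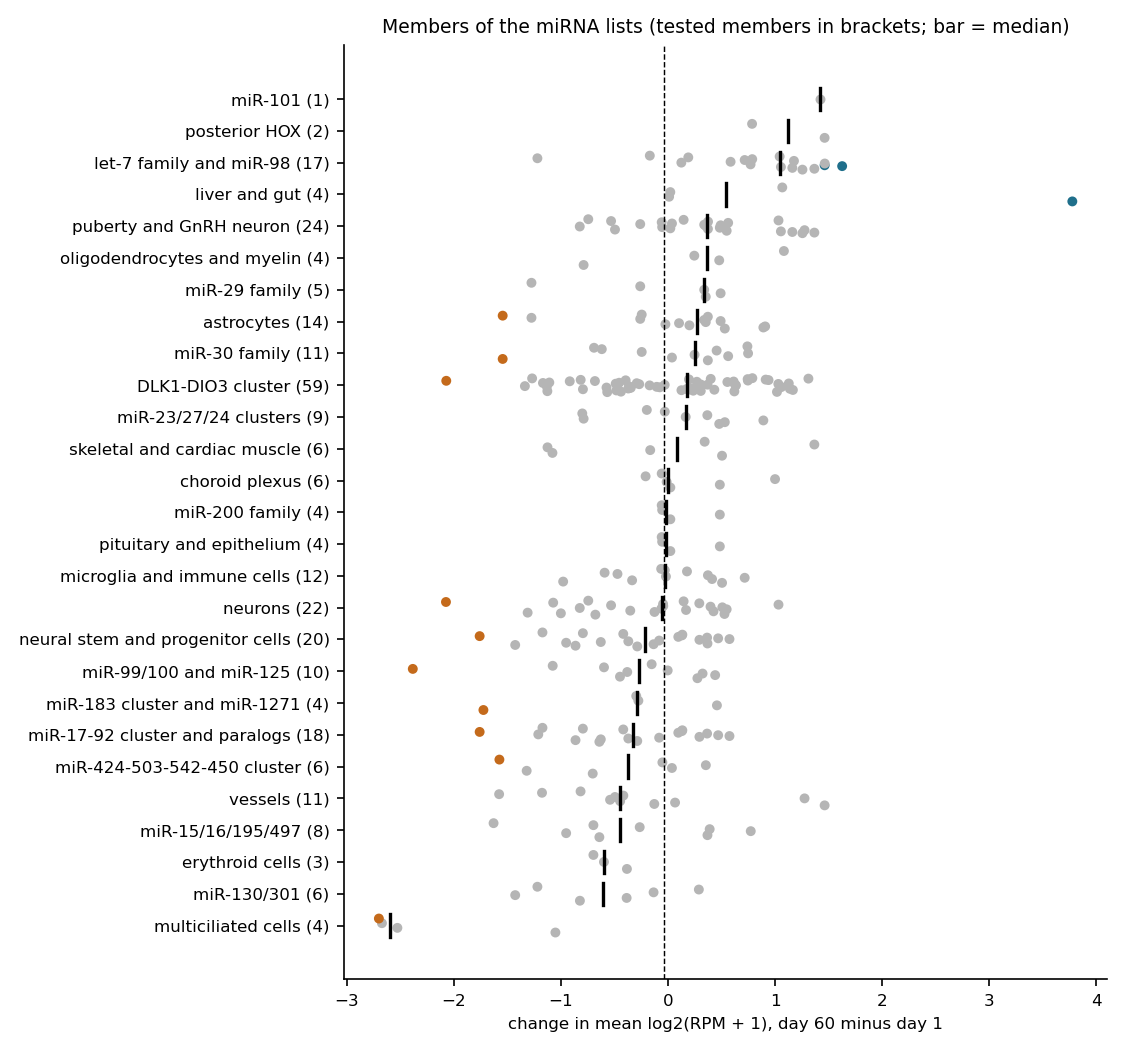
Changes of the tested members of each family and marker list (log2 units, day 60 minus day 1), 1 point per miRNA, with the median of the list as a bar and the median of all 414 miRNAs, -0.04, as the dashed line; blue points were called higher and orange points lower. The let-7 family sits to the high side with a median of 1.04 and the multiciliated markers to the low side with -2.60, while most lists straddle 0.

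Neighbouring miRNA genes did not always lie on the same side of 0. The counts that follow use the sign alone, whatever the size of the change. In the group of miR-429, miR-200a and miR-200b, for instance, the changes were -0.06, 0.02 and 0.49, beside a median standard error of 0.52. Of 38 groups of miRNA genes lying within 10 kb of the next, 23 held tested products on both sides of 0, 5 held products above 0 only and 10 below 0 only. Among the last were the miR-449 group and that of miR-141 and miR-200c, which had 1 tested product each and so could not be split. In the one-sided groups of miR-130b with miR-301b and of miR-374a with miR-545, only 1 hairpin had tested products. Both strands of a hairpin counted as products, so the arms of 1 hairpin could split a group, as those of miR-145 did beside miR-143. The let-7c and miR-99a pair was split, with 1.46 and 1.63 for the strands of let-7c and -0.60 and -2.38 for those of miR-99a. No other group had called products on both sides of 0. The let-7a and let-7b pair had all 4 products between 1.06 and 1.37, and the let-7f and let-7d pair all 4 between 0.72 and 1.47. The groups below 0 throughout included miR-34b with miR-34c, miR-199a with miR-214 (4 products, -1.58 to -0.42), miR-195 with miR-497 (3 products, -1.63 to -0.26), miR-144 with miR-451 (3 products, -0.70 to -0.38) and the run from miR-502a to miR-502b (6 products, -1.35 to -0.28).

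The most abundant miRNAs were largely the same at both ages. Of the 10 most abundant at each age 9 were shared, and these 10 held 63.8% of reads on day 1 and 65.2% on day 60. miR-9-5p led at both, with 22.5% and 14.1% of reads. miR-7-5p held 6.52% and 12.6%, miR-143-3p of smooth muscle 7.96% and 5.17%, and let-7f-5p 5.06% and 7.04%. miR-100-5p, miR-27b-3p, miR-26a-5p, let-7i-5p and let-7g-5p completed the shared set. let-7a-5p entered the set on day 60 in place of miR-148a-3p. None of these 11 passed the test.

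The later ages, which were compared with neither age here, give the levels that followed. miR-363-3p measured 27.5 ± 2.12 RPM on day 120 and 16.4 ± 3.42 RPM on day 180, miR-449a-5p 2.72 ± 4.59 RPM on day 120 and 0.686 ± 0.482 RPM on day 180 and miR-493-3p 21.05 ± 10.8 RPM on day 120 and 15.3 ± 9.12 RPM on day 180 (SD, n = 5), all below their newborn means of 108, 19.5 and 94.0 RPM. miR-30a-5p measured 5387 ± 879 RPM on day 120 and 5046 ± 1939 RPM on day 180 and miR-1271-5p 396 ± 148 RPM on day 120 and 468 ± 139 RPM on day 180, above their day-60 means and below their newborn ones. let-7c-5p measured 9794 ± 3854 RPM on day 120 and 8267 ± 3304 RPM on day 180, below its day-60 mean of 17012 RPM. miR-122 measured 114 ± 7.74 RPM on day 120 and 109 ± 54.99 RPM on day 180, close to the level of the 4 day-60 libraries other than replicate 4.

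**Figure D5:**
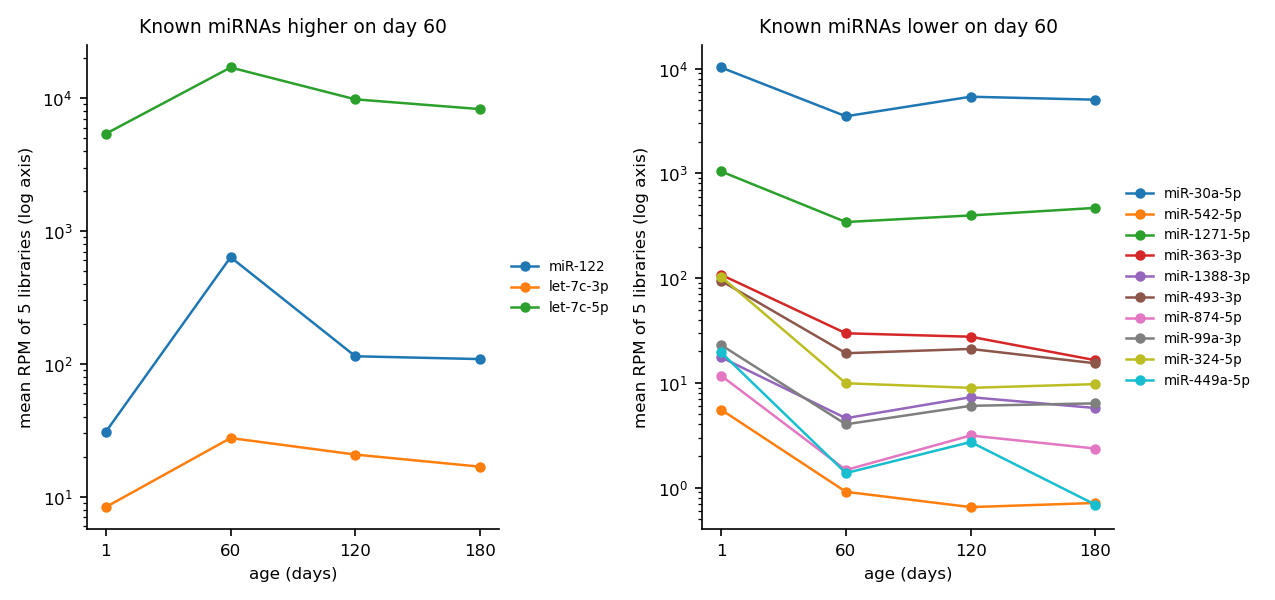
Mean level of the 13 called known miRNAs at the 4 ages (vertical axis, mean RPM of 5 libraries, log scale; horizontal axis, age in days), with those higher on day 60 at left and those lower at right. For miR-363-3p, miR-449a-5p and miR-493-3p the means on days 120 and 180 lie below the newborn mean, and for let-7c-5p they lie between the newborn and the day-60 mean.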

How the data were processed

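Small RNA libraries were made from total RNA extracted with Trizol, with the NEBNext small RNA kit, per the labels' protocols. The authors deposited 1 table of miRNA levels over 20 libraries, and the submitters' processing notes name Bowtie. Not given in the sources used here are the build, the catalogue of miRNAs, the counter and the tool that made the numbered predictions. The deposited columns are named TPM, but every value was a whole multiple of 1 step per library (within 0.000399 reads), so they were taken as RPM of miRNA reads, and whole reads were recovered for 100% of values. Because each library is scaled to the same total, a change is relative to all other miRNAs. The floor reflects counting alone, as reads copied by PCR do not count separate molecules.

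A miRNA was tested at 1 RPM or more in at least 5 libraries, with limma 3.58.1 in R 4.3.3 (eBayes with a variance trend, two-sided) on log2(RPM + 1) and Benjamini-Hochberg adjustment at 0.05 over the 414 tested. The fit held all 20 libraries as 4 age means, with no covariate, and took the spread of a miRNA or balance to be the same at all ages. Where newborns spread more widely than the other ages, the standard errors and p-values given can be too small. The median standard error of the fit was 0.52 log2 units, and the scale understates changes near the floor. Arm balances were tested alike over 120 hairpins. Gene neighbours came from the RefSeq annotation of goat (254 of 256 hairpins matched by name), used only for which genes lie within 10 kb of each other. No pair of libraries of an age agreed within sampling noise (smallest chi-square per degree of freedom 392 over 40 pairs). The steps were tested on simulated data, in which each miRNA had the same dispersion at every age and no library was made to stand apart. Such data cannot show how the tests behave with the wider spread of the newborns here.

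The members and the 27 lists were chosen with earlier results of these data known, so counts over them are descriptions. Named are all called known miRNAs with their other arm, the 2 numbered predictions of smallest p, the 20 known miRNAs next in p at 10 RPM or more, the 10 most abundant at each age, the first 15 called arm balances, the called and the most abundant members of the lists, and those called by the 4 other scalings or count tests alone. Other names, miR-219 and miR-338-3p among them, were chosen after their values were seen. Alternatives were scaling by quantiles or by median of ratios, pseudocounts of 0.1 and 5, a filter at 10 RPM or none, a constant prior variance, a fit of the 2 ages alone, a block for the replicate number, omission of each library in turn and, on recovered reads, edgeR 4.0.16 (quasi-likelihood) and DESeq2 1.42.0. Totals over miRNAs that share a seed were not analysed here.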

Additional observations from a re-analysis of the deposited data

Results flagged for a closer look

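In each age of 5 libraries, the library lying farthest from the other 4 was compared with Dixon's 95% critical value of 0.71, on the log2 scale for levels and arm balances and on the read scale for depth, for 230 sets of 5 values. This picked out 21, and chance picks out about 1 in 20 sets. Depth stood apart in replicate 2 of day 1, with 4018002 reads, and in replicate 3 of day 60, with 4353386 reads, the shallowest library of each age.

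In replicate 2 of day 1, miR-99a-5p reached 46336 RPM, above 19324 to 22339 RPM in the other newborns, and miR-200c reached 498 RPM, above 3.53 to 11.6 RPM. miR-3955-3p was low there, at 1.74 RPM. The arm balance of miR-145 was 6.98 in that library, against 2.39 to 3.56 in the other newborns, and that of miR-542 was -2.84, against -6.11 to -5.62. Replicate 3 of day 1 had the lowest let-7c-5p, 3406 RPM, and the highest balances of miR-2411, 3.07, and miR-425, 2.22. Replicate 4 of day 1 had low miR-16b-5p, 385 RPM, and low miR-338-5p, 372 RPM where the other newborns had 1272 to 1888 RPM.

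On day 60, replicate 4 held 2539.6 RPM of miR-122, where the other 4 held 124 to 233 RPM, and 28.8 RPM of miR-200c. It had the least miR-23b-3p, 4518 RPM, and the least miR-130b-3p, 0.960 RPM. Replicate 3 had 29571 RPM of let-7g-5p, below 47434 to 53961 RPM in the rest. Its arm balances stood apart for miR-877, at 0.67, for miR-425, at 3.45, and for miR-532, at 8.38. Replicate 5 had 939 RPM of let-7d-5p, below 1839.7 to 2211 RPM in the other day-60 libraries.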

How the results depend on the processing

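The 16 called miRNAs became 9 with no filter, 4 with only the 2 ages in the fit, 40 with median-of-ratios scaling, 34 with quantile scaling, 57 with edgeR and TMM, 62 with edgeR on library size and 86 with DESeq2. Leaving out 1 library gave 2 to 43. The 29 called arm balances became 19 with the filter at 10 RPM and 1 with only the 2 ages, and leaving out 1 library gave 3 to 29. Other settings kept both counts within 1.5 times. Scaling moved the median of all miRNAs from -0.04 to 0.07 (median-of-ratios), 0.04 (quantile), -0.06 (DESeq2) and -0.21 (edgeR on library size). Over the alternatives, the called miRNAs and balances named in the text stayed past the threshold in 924 cases and lost it in 325, and none reversed; of those not called, 126 cases passed. The causes of these shifts were not tested. The deviations of same-numbered libraries from their age means had correlations of 0.09, 0.10, -0.28, 0.34 and -0.09. Only replicate 4 correlated best with its own number. So few values cannot show whether the animals were paired by replicate number. With the replicate number as a block, 21 miRNAs and 28 arm balances were called. Depth limits the miRNAs near the floor, and totals by seed were not run.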
